A study of Homo sapiens with 2 samples.

Results

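A set of 40 genes of glycolysis and of the response to low oxygen was compared between a CD2-positive and a CD2-negative subclone of HMC1 cells. HMC1 is an established human cell line from a mast cell leukaemia, and CD2 is an adhesion receptor best known from T cells. Both subclones came from the same line by fluorescence-activated cell sorting with an antibody to CD2. The CD2-positive subclone carries the receptor on its surface, the CD2-negative subclone lacks it, and no other treatment or genotype is given. Total RNA of each subclone was hybridised to 1 Affymetrix U133 Plus 2.0 array, so each group holds 1 sample and each subclone stands for a single sorted population. No value below has an error between cultures, and no p-value can be given.

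The members are 17 enzymes of glycolysis with lactate dehydrogenase, 7 sugar and lactate transporters and flux regulators, 4 genes of oxygen sensing and 12 further genes that low oxygen induces. A gene was measured where the platform annotation named a probe set with its current or former symbol alone, and where several did, the brightest by mean log2 intensity stood for it. Of the 40 members 37 were measured, among 19775 genes in all. SLC16A1 and SLC16A3, both lactate and pyruvate transporters, and CA9, a carbonic anhydrase, had no such probe set and were not analysed here. The deposited values are intensities on a linear scale, and every difference below is the log2 value of the CD2-positive minus that of the CD2-negative array. Comparison was limited to genes that reached an intensity of 64 (log2 of 6) on at least 1 array, called the floor, which left 27 members and 3564 genes. Because brightness depends on the probes, the level of 1 gene cannot be set against that of another, and only the differences between the arrays are compared across genes.

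Glycolysis splits glucose into pyruvate through a fixed chain of cytosolic enzymes, and lactate dehydrogenase turns pyruvate into lactate. When oxygen is low, the prolyl hydroxylases that mark the alpha subunits of the hypoxia-inducible factors for breakdown lose activity. The factors then bind short DNA elements and raise transcription of glycolytic enzymes, glucose transporters and many other genes. Mast cells use glycolysis as a source of energy, and hypoxia-inducible factors are known to raise their production of vascular endothelial growth factor.

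The label of the cells was checked on marker genes first. CD2 read 219 in CD2-positive and 13 in CD2-negative cells. The mast cell genes KIT (1373 in CD2-positive, 1328 in CD2-negative cells), HDC (1715 in CD2-positive, 1219 in CD2-negative cells), TPSAB1 (4806 in CD2-positive, 3142 in CD2-negative cells, shared with near-identical tryptase genes) and CPA3 (1220 in CD2-positive, 207 in CD2-negative cells) were all well above the floor in both. None of the 16 measured markers of T and NK cells, B cells, monocytes, erythroid cells or epithelial cells and fibroblasts reached the floor, with values from 2 to 17 in CD2-positive and from 2 to 28 in CD2-negative cells. These lists are short, and related genes outside them did pass the floor. The keratin KRT19 read 197 in CD2-positive and 198 in CD2-negative cells. The globin HBD read 20 in CD2-positive and 76 in CD2-negative cells, and the granzyme GZMM 103 in CD2-positive and 17 in CD2-negative cells. The ratio of the 3' to the 5' control probe set was 1.003 in CD2-positive and 1.068 in CD2-negative cells for GAPDH, and 1.38 in CD2-positive and 1.59 in CD2-negative cells for ACTB. All 18 probe sets of the hybridisation controls, which are spiked bacterial and phage sequences, were dimmer in the CD2-positive sample, by a median log2 difference of -0.18. The part of RNA quality and of this shift in the differences below was not tested. Centring on the hybridisation controls moves the median of all compared genes from -0.05 to 0.14 and every member by the same amount.

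Glycolytic enzymes read slightly but broadly higher in the CD2-positive subclone, while the hypoxia-induced genes outside glycolysis went both ways. Of the 14 enzymes above the floor 13 had a positive difference, and their median was 0.26, with a range from -0.09 to 0.65. Of the 10 other hypoxia-induced genes above the floor 4 were positive and 6 negative, and their median was -0.19, with a range from -1.36 to 0.62. A positive difference was found for 41.9% of the 3564 genes compared and for 41.8% of the 672 genes with a mean log2 value of 8 or more, the level at which most of the enzymes lie, a cut chosen after the values were seen. A negative difference was found for 55.7% of all genes compared, close to the share among the other hypoxia-induced genes. The median of all compared genes was -0.05, and the middle 50% of them lay between -0.23 and 0.14. The enzyme median was 0.45 above that of the other hypoxia-induced genes, a gap that any common shift of the arrays leaves as it is. When centred on the hybridisation controls the enzyme median became 0.44 with 14 of 14 positive, and that of the other hypoxia-induced genes -0.01 with 5 of 10 positive. The median of all compared genes was then 0.14, so a larger share of them than 41.9% was positive under that centring.

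No member was at least 2-fold higher in the CD2-positive subclone, against 1.21% of all genes compared. ADM alone was at least 2-fold lower, against 0.758% of all genes. At 1.5-fold, 4 of the 27 members were higher (ALDOC, TPI1, ENO2 and P4HA1), where the share of all genes was 4.24%, and ADM was again the single lower member, where the share was 3.76%. The spread that the arrays themselves offer is that between probe sets of the same gene. Over the 937 genes for which several probe sets passed the floor, it came to 0.13 on the log2 scale for 1 probe set, which covers probe behaviour and not cultures or hybridisation. Rounding of the deposited values adds at most 0.02 in either direction for a member above the floor.

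**Figure D1:**
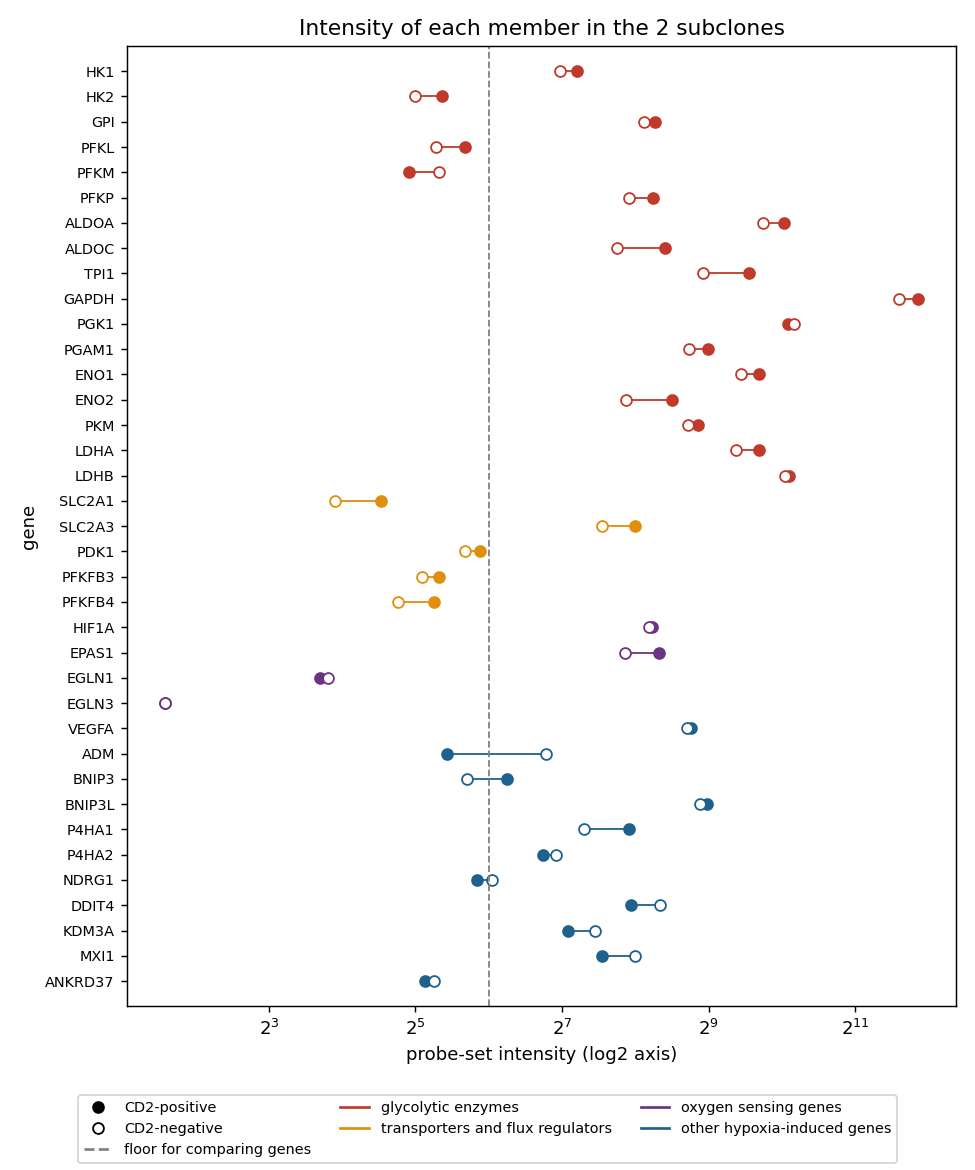
Intensity of the 37 measured members on a log2 axis, with a filled point for the CD2-positive and an open point for the CD2-negative array. Horizontal positions of different genes depend on their probes and are not comparable, while the 2 points within a row are: for the 17 enzymes the filled point lies to the right in all rows but PFKM and PGK1.

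Glucose entry and its first phosphorylation were read from both glucose transporters and both hexokinases. SLC2A3, a high-affinity glucose transporter, read 254 in CD2-positive and 186 in CD2-negative cells, a log2 difference of 0.45. Its 3 probe sets lay between 0.45 and 0.47. They are annotated to SLC2A3 alone but carry identifiers that Affymetrix gives to sets that may bind related transcripts. A further 2 probe sets that it shares with its near copy SLC2A14 gave 0.47 and 0.61, and their signal cannot be assigned to SLC2A3 alone. SLC2A1, the transporter classically induced by low oxygen, was below the floor at 23 in CD2-positive and 15 in CD2-negative cells. HK1, the housekeeping hexokinase, read 148 in CD2-positive and 125 in CD2-negative cells (0.24), and HK2, the inducible form, was below the floor at 41 in CD2-positive and 32 in CD2-negative cells. All of these genes read higher in the CD2-positive sample, the bright transporter by more than the hexokinase.

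The next steps rearrange and split the sugar. GPI, which turns glucose phosphate into fructose phosphate, read 307 in CD2-positive and 278 in CD2-negative cells (0.14). PFKP, the platelet form of phosphofructokinase, the committing step of the pathway, read 303 in CD2-positive and 240 in CD2-negative cells (0.34). The liver form PFKL (51 in CD2-positive, 39 in CD2-negative cells) and the muscle form PFKM (30 in CD2-positive, 40 in CD2-negative cells) were below the floor and had opposite signs, and PFKM was the only member below the floor with a difference beyond 0.12 in the negative direction. ALDOA, the ubiquitous aldolase, read 1045 in CD2-positive and 858 in CD2-negative cells (0.28), with 3 probe sets between 0.28 and 0.37. ALDOC, the aldolase form best known from brain, read 339 in CD2-positive and 216 in CD2-negative cells, a difference of 0.65 and the most positive of all members. ALDOC stands on 1 probe set.

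TPI1, which interconverts the triose phosphates that aldolase releases, read 749 in CD2-positive and 484 in CD2-negative cells (0.63). Its second probe set above the floor gave 0.48, and averaging in the last, at 3 on both arrays, made the difference 0.37. GAPDH, which oxidises the triose and often serves as a reference gene, read 3696 in CD2-positive and 3092 in CD2-negative cells (0.26), and its 6 probe sets lay between 0.18 and 0.28. The difference of GAPDH was positive under every scaling tried. PGK1, which makes the first ATP of the pathway, read 1085 in CD2-positive and 1151 in CD2-negative cells, a difference of -0.09, or 0.10 once the arrays are centred on the hybridisation controls. Its 4 probe sets above the floor lay between -0.15 and -0.09. PGK1 thus stood apart from TPI1 and GAPDH, the enzymes just before it, on every probe set above the floor.

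The enzymes of lower glycolysis also read higher, with LDHB close to 0. PGAM1, a phosphoglycerate mutase, read 508 in CD2-positive and 424 in CD2-negative cells (0.26). ENO1, the ubiquitous enolase, read 823 in CD2-positive and 697 in CD2-negative cells (0.24), and its second probe set above the floor gave 0.43. ENO2, the enolase known as a marker of neurons, read 361 in CD2-positive and 234 in CD2-negative cells (0.63) on 1 probe set. PKM, the pyruvate kinase of most cells, read 462 in CD2-positive and 422 in CD2-negative cells (0.13). With the mean of all its probe sets, of which the other lies far below the floor at 22 in CD2-positive and 26 in CD2-negative cells, the difference of PKM was -0.06. LDHA, the lactate dehydrogenase subunit that favours lactate production, read 825 in CD2-positive and 661 in CD2-negative cells (0.32), while LDHB, the heart-type subunit, read 1093 in CD2-positive and 1057 in CD2-negative cells (0.05) with 0.05 for its second probe set.

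Within 3 isozyme pairs the forms differed in the size of a positive difference. ALDOC exceeded ALDOA by 0.37, ENO2 exceeded ENO1 by 0.39 and LDHA exceeded LDHB by 0.27, where the standard deviation of the gap between 2 probe sets of the same gene was 0.18. For the enolases the gap is smaller with the other ENO1 probe set, whose 0.43 lies between the values. A further enolase gene outside the set, ENO3, read 82 in CD2-positive and 66 in CD2-negative cells (0.31). Isozymes are close in sequence and some of these probe sets carry the identifiers that Affymetrix gives to sets that may bind related transcripts, among them those of ALDOA, ENO1, LDHA and LDHB.

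**Figure D2:**
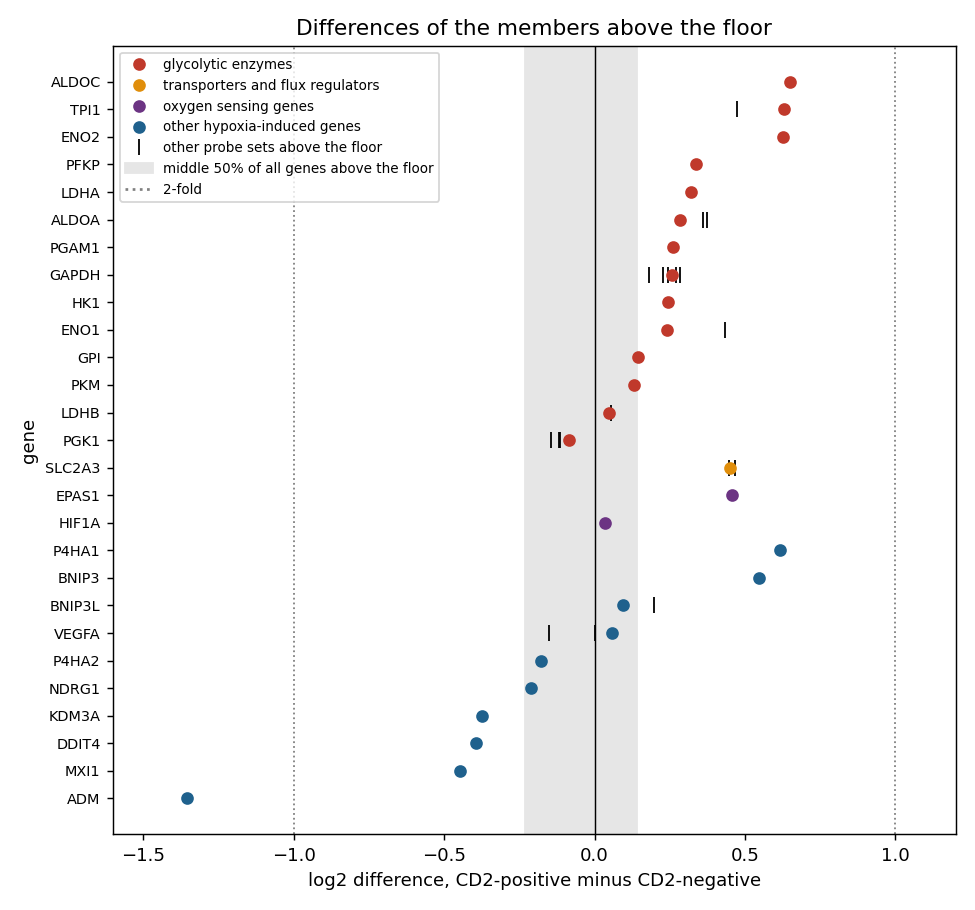
Log2 difference, CD2-positive minus CD2-negative, of the 27 members above the floor, sorted within each group, with ticks for other probe sets of the gene above the floor, a grey band for the middle 50% of all 3564 genes and dotted lines at 2-fold. Most enzymes lie to the right of the band, and the other hypoxia-induced genes spread from P4HA1 at 0.62 to ADM at -1.36.

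Genes that set the flux through the pathway were dim. PDK1, the kinase that keeps pyruvate out of the mitochondrion by inactivating pyruvate dehydrogenase, read 59 in CD2-positive and 51 in CD2-negative cells. PFKFB3 (40 in CD2-positive, 34 in CD2-negative cells) and PFKFB4 (38 in CD2-positive, 27 in CD2-negative cells) make and break the sugar bisphosphate that activates phosphofructokinase. These 3 genes and SLC2A1 all read higher in the CD2-positive sample, but all lay below the floor on both arrays, where a difference depends more on the background correction.

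Oxygen sensing itself differed little at HIF1A. HIF1A, the broadly expressed alpha subunit, read 298 in CD2-positive and 291 in CD2-negative cells (0.03). Its protein is regulated mainly by breakdown, which an RNA array does not measure. EPAS1, which encodes the second alpha subunit, read 320 in CD2-positive and 233 in CD2-negative cells (0.46), 0.42 more than HIF1A. With the mean of its 3 probe sets, of which the others lie below the floor, the difference of EPAS1 was 0.12. The prolyl hydroxylase gene EGLN1 was dim at 13 in CD2-positive and 14 in CD2-negative cells. EGLN3, a hydroxylase that low oxygen itself induces, read 3 in CD2-positive and 3 in CD2-negative cells, within the range of 1 to 4 seen for the 27 Bacillus control probe sets, which have no human target.

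The other hypoxia-induced genes lay on both sides of 0. ADM, which encodes the vasodilator peptide adrenomedullin, read 43 in CD2-positive and 110 in CD2-negative cells, a difference of -1.36 or 2.56-fold lower. It stands on 1 probe set and passed the floor in the CD2-negative sample only, as did NDRG1, a stress-response gene (57 in CD2-positive, 66 in CD2-negative cells, -0.21). MXI1, an antagonist of MYC, read 187 in CD2-positive and 255 in CD2-negative cells (-0.45). DDIT4, an inhibitor of mTOR signalling also known as REDD1, read 245 in CD2-positive and 322 in CD2-negative cells (-0.39). KDM3A, a histone demethylase, read 135 in CD2-positive and 175 in CD2-negative cells (-0.37), and P4HA2, a subunit of collagen prolyl hydroxylase, read 107 in CD2-positive and 121 in CD2-negative cells, a difference of -0.18, or 0.00 once the arrays are centred on the hybridisation controls. ANKRD37 was below the floor at 35 in CD2-positive and 38 in CD2-negative cells.

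On the other side, P4HA1, the sister subunit of P4HA2, read 242 in CD2-positive and 158 in CD2-negative cells (0.62), 0.79 above P4HA2. Averaged with its other probe set, which read 2 on both arrays, the difference of P4HA1 was 0.31. BNIP3, a mitochondrial protein of cell death and mitophagy, read 76 in CD2-positive and 52 in CD2-negative cells (0.55), passed the floor in the CD2-positive sample only, and gave 0.33 on its dimmer probe set. Its relative BNIP3L read 502 in CD2-positive and 470 in CD2-negative cells (0.10), with 0.20 on the second probe set, so that BNIP3 exceeded BNIP3L by 0.45. VEGFA, the vascular growth factor, read 432 in CD2-positive and 415 in CD2-negative cells (0.06), and its 3 probe sets above the floor lay between -0.15 and 0.06. VEGFA was the only 1 of the 9 members with several probe sets above the floor whose probe sets differed in sign.

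**Figure D3:**
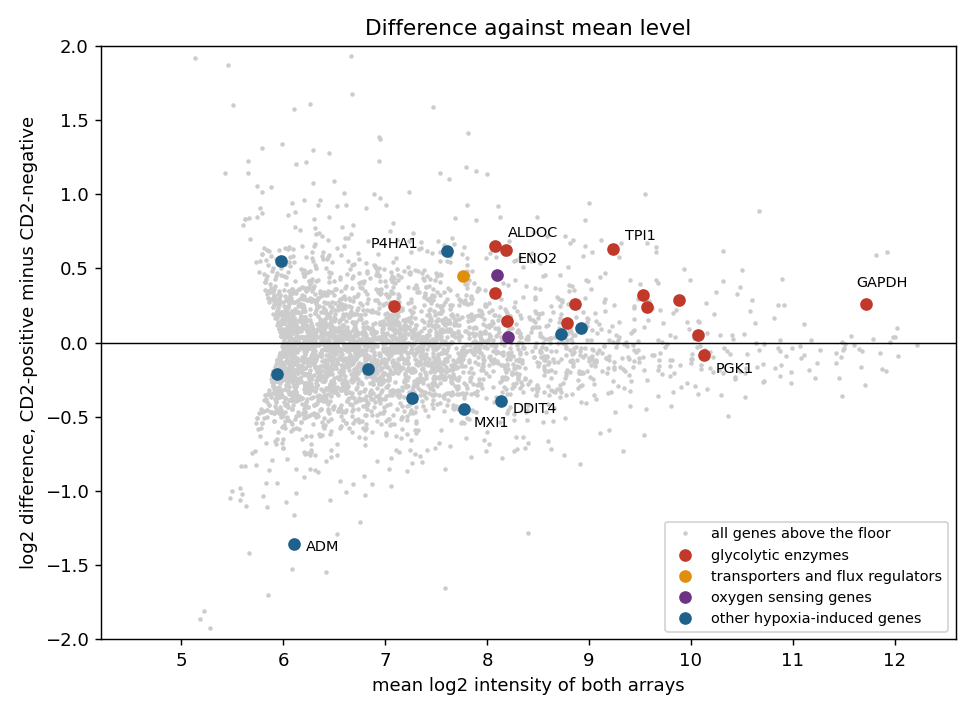
Log2 difference, CD2-positive minus CD2-negative, against the mean log2 intensity of both arrays for the members above the floor (coloured) and all genes above the floor (grey), with 10 genes beyond the vertical axis not drawn. The enzymes lie in the bright part of the range and mostly above the grey cloud's centre, with PGK1 just under 0 and GAPDH at 0.26.

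The promoters of 6 members are shown to set their sequences beside their differences. They are among the members farthest from 0 that the RefSeq promoter table (GRCh38.p14) lists with a single start: ALDOC, ENO2, P4HA1 and BNIP3, which read higher, and ADM and DDIT4, which read lower. TPI1 (0.63) and MXI1 (-0.45) were passed over because the table lists several starts for them. Each window runs from 250 bases before to 50 bases after the start, at ALDOC chr17:28576846-28577145 (- strand), ENO2 chr12:6914330-6914629 (+ strand), P4HA1 chr10:73096817-73097116 (- strand), BNIP3 chr10:131981874-131982173 (- strand), ADM chr11:10304823-10305122 (+ strand) and DDIT4 chr10:72273674-72273973 (+ strand). Capitals mark ACGTG or GCGTG, the core letters of the hypoxia response element, on either strand, so that CACGT and CACGC are the same letters read on the other strand, and CACGTG counts once on each.
ALDOC: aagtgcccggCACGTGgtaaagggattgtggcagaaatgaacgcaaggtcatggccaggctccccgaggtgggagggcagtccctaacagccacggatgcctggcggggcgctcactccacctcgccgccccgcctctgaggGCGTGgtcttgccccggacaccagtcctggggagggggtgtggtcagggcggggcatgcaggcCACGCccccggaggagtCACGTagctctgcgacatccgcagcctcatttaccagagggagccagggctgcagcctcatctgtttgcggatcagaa
ENO2: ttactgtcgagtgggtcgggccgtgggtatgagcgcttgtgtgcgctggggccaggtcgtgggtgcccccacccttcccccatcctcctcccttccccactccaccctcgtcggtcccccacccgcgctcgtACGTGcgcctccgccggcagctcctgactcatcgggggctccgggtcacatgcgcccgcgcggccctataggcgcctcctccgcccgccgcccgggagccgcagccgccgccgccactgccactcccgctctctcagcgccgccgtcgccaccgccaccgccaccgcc
P4HA1: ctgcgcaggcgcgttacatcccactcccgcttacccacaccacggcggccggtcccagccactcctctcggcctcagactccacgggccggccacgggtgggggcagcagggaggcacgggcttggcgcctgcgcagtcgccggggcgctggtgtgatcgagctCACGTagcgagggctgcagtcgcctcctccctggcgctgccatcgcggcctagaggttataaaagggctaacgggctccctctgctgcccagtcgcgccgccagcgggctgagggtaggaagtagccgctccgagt
BNIP3: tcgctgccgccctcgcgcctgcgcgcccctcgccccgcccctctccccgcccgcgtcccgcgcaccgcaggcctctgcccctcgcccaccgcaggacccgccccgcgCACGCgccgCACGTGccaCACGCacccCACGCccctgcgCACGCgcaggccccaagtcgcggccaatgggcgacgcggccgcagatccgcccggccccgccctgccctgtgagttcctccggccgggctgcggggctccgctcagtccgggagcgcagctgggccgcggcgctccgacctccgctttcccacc
ADM: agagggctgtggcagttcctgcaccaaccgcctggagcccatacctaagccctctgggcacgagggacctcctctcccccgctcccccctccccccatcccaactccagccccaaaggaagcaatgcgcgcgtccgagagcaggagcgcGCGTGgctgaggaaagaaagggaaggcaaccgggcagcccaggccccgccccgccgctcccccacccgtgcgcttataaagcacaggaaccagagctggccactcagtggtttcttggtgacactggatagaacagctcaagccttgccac
DDIT4: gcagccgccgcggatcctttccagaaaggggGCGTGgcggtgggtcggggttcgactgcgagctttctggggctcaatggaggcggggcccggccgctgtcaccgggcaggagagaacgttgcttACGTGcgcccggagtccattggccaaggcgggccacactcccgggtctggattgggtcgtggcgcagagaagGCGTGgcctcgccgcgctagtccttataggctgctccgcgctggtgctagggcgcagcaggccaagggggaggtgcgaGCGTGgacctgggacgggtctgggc

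The letters occurred 5 times in the window of ALDOC, 6 times in that of BNIP3 and 4 times in that of DDIT4, and 1 time each in those of ENO2, P4HA1 and ADM. Counted from the start site, with -1 as the base just before it, the 6 matches of BNIP3 began between -143 and -104, the single matches of ENO2, ADM and P4HA1 began at -118, -101 and -86, and the last match of DDIT4 began at 26, after the start. The first listed windows of TPI1 and MXI1 held 0 matches. LDHA (0.32) had 6 matches, and PGK1 (-0.09) had 4. Over the first listed promoter of the 35 members in the table, 25 held at least 1 match (71.4%), against 48.4% of all 35116 promoters. The members' windows are rich in G and C, with a median of 69.7% against 58.7% for all promoters. Among the 7775 promoters whose GC content lay within the middle 50% of the members', 66.4% held a match, close to the members' share. The shares were 12 of 17 for the enzymes and 7 of 9 for the other hypoxia-induced genes. These counts include members below the floor and CA9, which was not measured. A link between the letters and the differences was not tested. SLC2A3, SLC16A1, VEGFA, BNIP3L and NDRG1 were not in the table.

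Each member was also set beside the genes around it, taken as up to 10 nearest genes above the floor on each side in RefSeq order, members left out. Some members had fewer than 20 neighbours in all, the fewest being ANKRD37 with 11 and BNIP3 with 12. PGK1, on the X chromosome, had neighbours with a median difference of -0.31, so it read higher than its surroundings although its own value was negative. EGLN1 on chromosome 1 was the other member with a neighbour median beyond 0.2 in either direction (-0.36). All 35 other measured members had neighbour medians between -0.16 and 0.10. TPI1 and ENO2 lie in the same stretch of chromosome 12, with the same neighbour median of 0.09 and differences of 0.63 each. The other chromosome 12 members above the floor were SLC2A3 (0.45, neighbours 0.05), GAPDH (0.26, neighbours 0.08) and LDHB (0.05, neighbours -0.01). Members that lie together do not enter each other's neighbour median. P4HA1 and DDIT4 share a stretch of chromosome 10 with a neighbour median of -0.04, and their differences were 1.01 apart. EPAS1 had a neighbour median of -0.16 against its own 0.46.

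**Figure D4:**
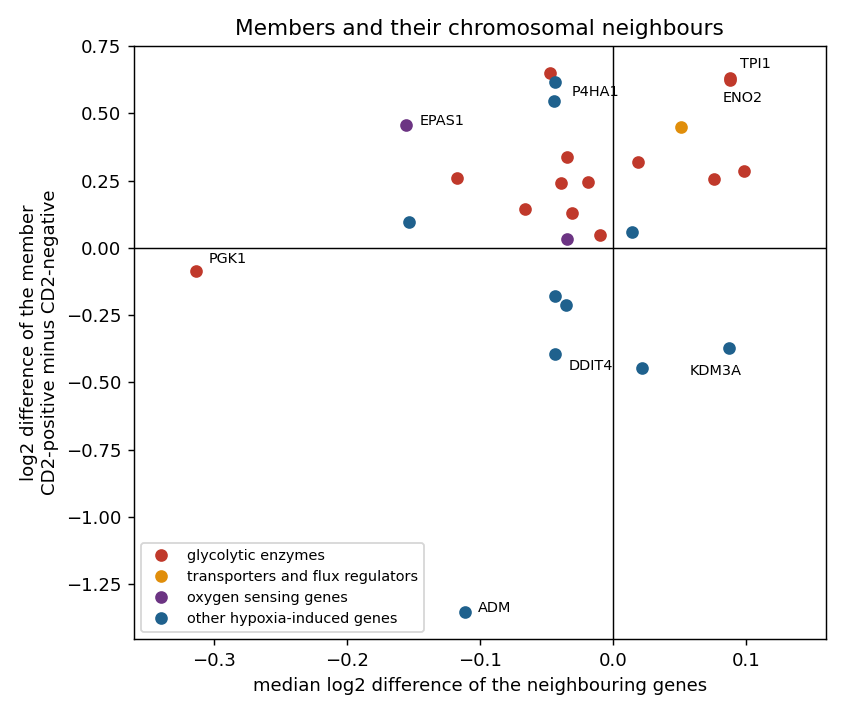
Log2 difference of each member above the floor, CD2-positive minus CD2-negative, against the median log2 difference of its neighbouring genes. PGK1 lies alone on the left at -0.31, and P4HA1 and DDIT4 lie on 1 vertical line with differences of opposite sign.

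Genes next to the set in metabolism and oxygen sensing did not share 1 direction. Of 10 further genes of glycolysis and pyruvate use above the floor 6 had a positive difference, 3 a negative one and ADPGK none, with a median of 0.02. TIGAR, a phosphatase that removes the activator of phosphofructokinase and so lowers glycolytic flux, read 20 in CD2-positive and 70 in CD2-negative cells, a difference of -1.81 on 1 probe set that passed the floor in the CD2-negative sample only, beside a neighbour median of 0.07. BSG, the chaperone of the lactate transporters, read 151 in CD2-positive and 107 in CD2-negative cells (0.50). Of the 5 genes of the pentose phosphate pathway 2 were positive, with a median of -0.04 that became 0.00 when centred on all genes and 0.14 when centred on the hybridisation controls. The most positive was RPIA, ribose phosphate isomerase, at 71 in CD2-positive and 46 in CD2-negative cells (0.63), above the floor in the CD2-positive sample only.

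Regulators of the hypoxia-inducible factors read lower in CD2-positive cells in 6 of 6 cases above the floor, where 55.7% of all genes were lower. Of these, SIAH2 (56 in CD2-positive, 64 in CD2-negative cells) passed the floor in the CD2-negative sample only. The other 11 of the 17 regulators measured lay below the floor, and their differences went both ways. The median of the 6 above the floor was -0.27, in a range from -0.35 to -0.04. All compared genes had a median of -0.05. Centring on the hybridisation controls moved the median of all compared genes to 0.14. The median of these regulators was then -0.09, and 4 of the 6 were negative. The member farthest from 0 was HSP90AA1, a chaperone that stabilises the alpha subunit, at 1110 in CD2-positive and 1416 in CD2-negative cells (-0.35), and its 4 probe sets lay between -0.35 and -0.18. Of 13 further hypoxia-induced genes above the floor 6 were positive, 5 negative and 2 equal on both arrays, with a median of 0.00. PLIN2, the coat protein of lipid droplets, read 379 in CD2-positive and 172 in CD2-negative cells (1.14), and PLOD1, a collagen lysyl hydroxylase, read 79 in CD2-positive and 39 in CD2-negative cells (1.02). Both were past 2-fold, as were 1.21% of all genes in that direction, and PLOD1 passed the floor in the CD2-positive sample only.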

How the data were processed

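Total RNA of 2 subclones was measured on 1 array each. Per the submitters' processing notes, the authors applied RMA with version 1.1 of Affymetrix Expression Console. The deposited values are probe-set intensity values, whole numbers on a linear scale. Beyond naming RMA, no source used here describes the background correction, which bears on low values and on folds against them. RMA gives both arrays the same distribution, so a difference in total RNA signal would not show. Having 2 arrays limits the precision.

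Of 54675 probe sets 41097 carried 1 gene symbol, 1801 several and 11777 none. Only the first were used, and 41043 of them were given current symbols through RefSeq (assembly GRCh38.p14 table). The files name no genome build. Log2 differences, medians and counts were computed with Python 3.11.15, pandas 2.3.3 and statsmodels 0.14.6, and the steps were tested on simulated data. With 1 array per subclone no test was run.

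The members and gene lists were chosen with earlier results of these data known. Named genes are all members, CD2, KIT, CPA3, HDC, TPSAB1, the GAPDH and ACTB controls and, from each further list, the genes past 2-fold or otherwise the gene farthest from 0. BSG, ADPGK, ENO3, SIAH2, KRT19, HBD and GZMM were named with their values known. The alternatives comprised other floors, other ways to represent a gene, 3 other scalings, a 1.5-fold rule and leaving out members on shifted chromosome segments.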

Additional observations from a re-analysis of the deposited data

How the results depend on the processing

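The enzyme median stayed positive and the median of the other hypoxia-induced genes negative under every alternative tried, at 0.24 to 0.44 and -0.30 to -0.01. The gap between them ranged from 0.41 to 0.56. The -0.30 and the 0.56 came from the mean of all probe sets, which left 22 members above the floor. P4HA1, BNIP3, KDM3A and P4HA2 fell below the floor there and left the median of their group. Centring on the hybridisation controls moved the medians to 0.44 for the enzymes, 0.63 for SLC2A3 as the single transporter above the floor, 0.43 for the oxygen sensing genes and -0.012 for the other hypoxia-induced genes, which the shift of 0.18 added to all genes accounts for by construction. The median of the oxygen sensing genes, 0.25 over HIF1A and EPAS1, was 0.034 with the mean of all probe sets, where only HIF1A passed the floor, and 0.017 with no floor, where EGLN1 and EGLN3 entered. The count of members lower by 2-fold was 1 except at a floor of log2 7, where ADM dropped out and it was 0. The count of members higher by 2-fold was 0 except under the 1.5-fold rule, where it was 4. Among single members the sign changed for PGK1 (0.10) and P4HA2 (0.00) when centred on the hybridisation controls, and for PKM (-0.06) and VEGFA (-0.01) with the mean of all probe sets. That mean, which takes in probe sets below the floor, also moved P4HA1 to 0.31, EPAS1 to 0.12, TPI1 to 0.37, KDM3A to -0.19 and P4HA2 to -0.01, each with its sign kept. With plain identifiers only, TPI1, ENO1 and P4HA1 were left with dim probe sets below the floor that read the same on both arrays, a difference of 0. Only probe sets with plain identifiers left 14 members above the floor and no transporter. No paired analysis was possible because each group holds 1 sample. Each subclone has a single array, so no sample could be left out.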
